A study of Homo sapiens with 16 samples.

Results

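The genes described are the SOX, FOX and TBX transcription factors, found by gene symbol: SOX followed by digits, FOX followed by a letter, digits and at most 1 closing letter, or TBX followed by digits. The rule found 78 of the 57500 genes in the count tables, namely 19 SOX, 46 FOX and 13 TBX genes. In GENCODE release 29, 76 of the 78 were protein coding, and FOXO1B and FOXO3B were processed pseudogenes. SOX proteins bind the minor groove of DNA with an HMG box and bend it, FOX proteins bind with a winged-helix forkhead domain, and TBX proteins bind with a T-box. Many members act in the embryo, where a factor is made in a few lineages and directs their development, and some FOX proteins can bind their sites in closed chromatin. Others, such as the FOXK, FOXO and FOXM1 proteins, are made in most dividing or resting cells and act in metabolism, stress responses and the cell cycle.

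The cells were HEK293T, a line from human embryonic kidney with the large T antigen of SV40, and 16 RNA-seq libraries fell into 4 groups with 4 each. Cells with a lentiviral vector for H2A(E92K) received DMSO. Cells with the matching vector for H2A received JQ1 at 1 µM for 3 h, pinometostat at 2.5 µM for 24 h, or DMSO. E92K puts a lysine in place of a glutamate of the acidic patch, the face of the nucleosome on which many chromatin proteins dock. JQ1 is a small molecule that fills the acetyl-lysine pocket of BET bromodomain proteins, and pinometostat inhibits DOT1L, which methylates histone H3 in gene bodies. The labels name no removal of the cells' own H2A genes and no time for DMSO, and 1 set of H2A libraries with DMSO is the reference for the 3 h and the 24 h treatment. Time in culture and compound therefore cannot be told apart. The labels number the samples without naming separate cultures, so p-values measure only how these samples vary, which may be technical variation.

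Total counts ran from 17779692 to 27599686 per library. The mitochondrial genome took 16.5% of the counts in JQ1 replicate 1 and 3.04% to 3.69% in replicates 2 to 4 with JQ1. It took 7.45% in E92K replicate 4. HEXIM1, a common marker of BET inhibition, lay at 111 to 213 CPM (counts scaled to library size) with JQ1 and at 29.8 to 39.5 CPM with DMSO, a log2 fold change of 2.08 ± 0.18 (SE; edgeR adjusted p = 4.30e-07). The counts per gene cannot show the E92K codon. Of 10 kidney developmental markers 6, among them PAX2, SIX2, LHX1, GATA3 and CITED1, were above 1 TPM in every library. Endothelial markers, none of which was at 0 in every library, summed to 0.17 to 0.67 TPM over all 16 libraries.

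The values are on 3 scales. TPM, the deposited values per gene length, compare genes with each other. CPM, with library sizes scaled by TMM (the trimmed mean of M-values, which balances the bulk of genes between libraries), compare libraries. Log2 fold changes ± SE and adjusted p-values come from edgeR's quasi-likelihood test with Benjamini-Hochberg adjustment over all 17306 genes that passed a filter on low counts, with n = 4 per group and a threshold of 0.05. Of the 78 members 58 passed the filter: 15 of 19 SOX, 34 of 46 FOX and 9 of 13 TBX genes. "Rose" and "fell" are used below for changes past that threshold.

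In H2A cells with DMSO, 4 SOX, 16 FOX and 2 TBX genes averaged above 10 TPM. SOX12, a SOXC factor of the developing nervous system, and SOX4, its relative in progenitors of many tissues, averaged 103 ± 10.3 and 100.2 ± 20.3 TPM (SD, n = 4) and did not differ beyond their spread. Together they made up 67.9% of the summed SOX level. The next SOX genes were SOX2, a pluripotency and neural progenitor factor, at 32.4 ± 2.14 TPM and SOX21, its antagonist in neural progenitors, at 19.9 ± 1.47 TPM. Among the FOX genes FOXC1, a factor of mesoderm, eye and kidney development, led with 106 ± 8.52 TPM, 18.2% of the summed FOX level. FOXF2, a factor of gut and palate mesenchyme, followed with 60.0 ± 5.38 TPM, and FOXD1, a marker of the renal stroma, and the cell cycle factor FOXM1 had 54.7 ± 2.83 and 50.9 ± 8.15 TPM. Neighbours in this order of 3 genes did not differ beyond their spread. TBX1, a factor of the pharyngeal apparatus, reached 59.3 ± 1.32 TPM, 55.3% of the summed TBX level. TBX3 and TBX2, repressors that let cells bypass senescence, had 24.8 ± 4.05 and 8.52 ± 1.05 TPM, and TBX18, a factor of the ureteric mesenchyme, had 6.83 ± 0.63 TPM.

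**Figure D1:**
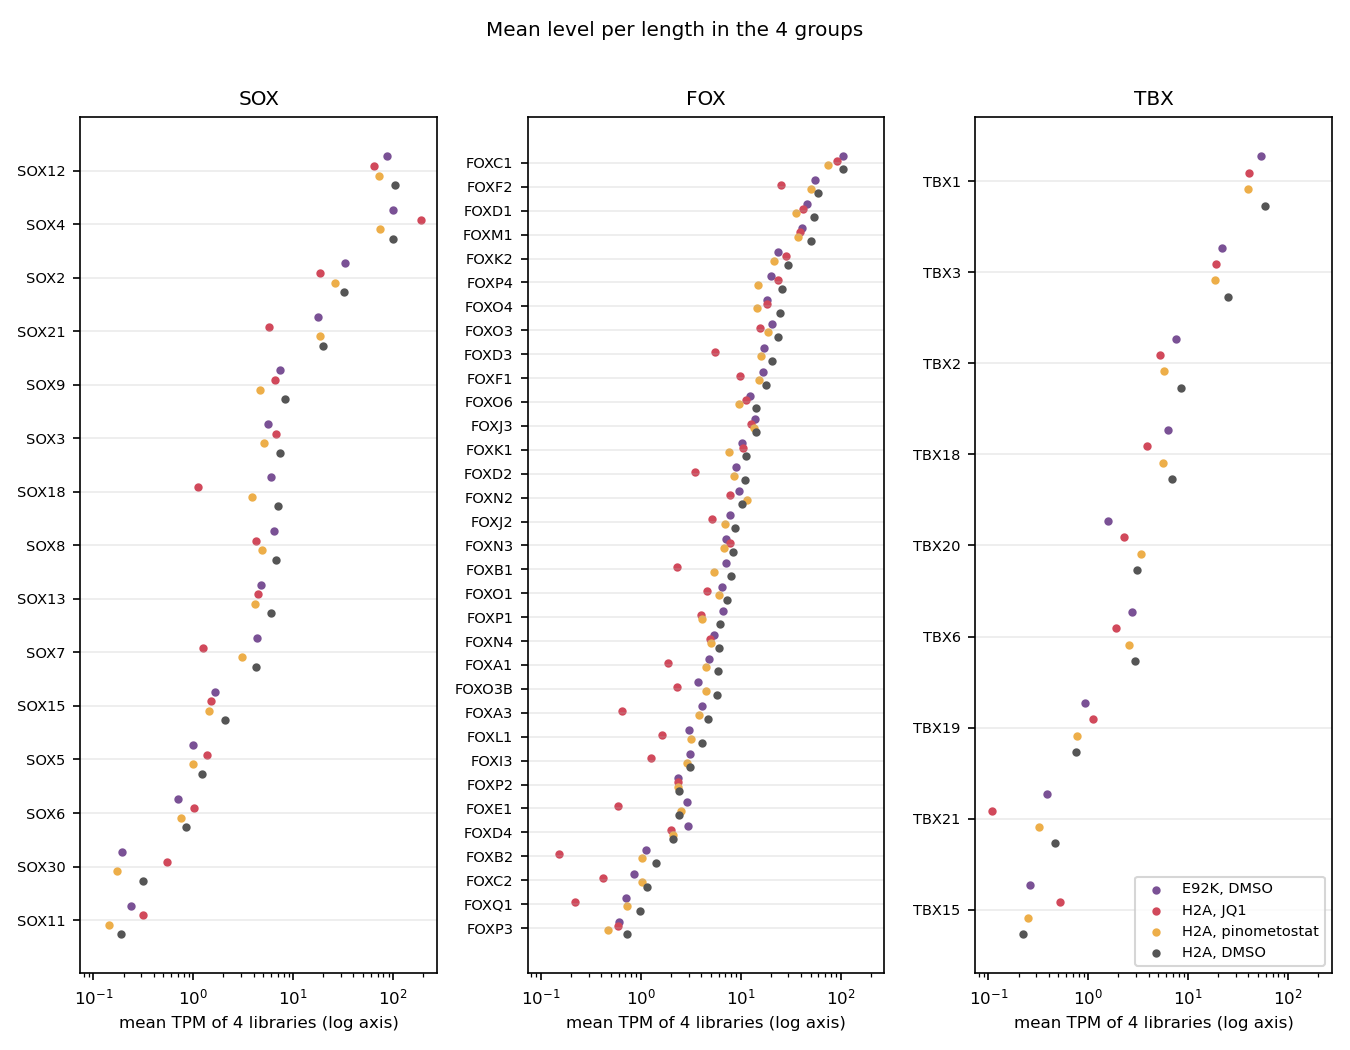
Mean TPM (log axis) of the tested members named on the vertical axis in the 4 groups, by family and ordered by their mean with DMSO; each point is a mean of 4 libraries. SOX12 and SOX4, FOXC1, and TBX1 lead their families with DMSO, and the JQ1 points of several FOX genes below 25 TPM lie to the left of the other groups.

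The other 20 members stayed at 14 counts or fewer in every library and were not tested. They were the SOX genes SOX1, SOX10, SOX14 and SOX17, the FOX genes FOXA2, FOXE3, FOXH1, FOXI1, FOXI2, FOXJ1, FOXL2, FOXN1, FOXO1B, FOXR1, FOXR2 and FOXS1, and the TBX genes TBX4, TBX5, TBX10 and TBX22. Of these 6 had no count in any library, namely FOXI1, FOXI2, FOXR2, SOX10, SOX17 and TBX22. At a depth of 17779692 counts or more, a count of 0 in a given library allows a true mean of up to 3 counts there, by counting error alone. Counts of 0 in every library allow less than that per library. The exons of SOX10 lie wholly inside a gene on the opposite strand that averaged 253 counts, so its 0 may depend on how shared reads were assigned. FOXO3B and FOXO1B are near-identical copies of FOXO3 and FOXO1, and FOXD4 has near-identical FOXD4L copies, so the split of reads within these pairs is uncertain.

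JQ1 was set against DMSO to ask which of these factors' transcripts differed after BET proteins were displaced for 3 h. Many FOX genes of the embryo fell, among them FOXA3, FOXE1, FOXD3, FOXB1, FOXD2 and FOXA1, each by 1.42 or more on the log2 scale. SOX genes moved both ways: SOX18, SOX21 and SOX7 fell by 1.44 or more, and SOX4, already among the most abundant, rose by 1.299. Among TBX genes 1 fell and 1 rose. In all 26 of 58 tested members changed (44.8%), 22 lower and 4 higher, against 17.6% of all tested genes changed. By direction, 10.4% of all tested genes fell and 7.16% rose. By family, 16 of 34 FOX genes fell and 0 rose, 5 of 15 SOX genes fell and 3 rose, and 1 of 9 TBX genes fell and 1 rose. The median log2 fold change was -0.26 over the FOX genes, -0.21 over the SOX genes and -0.29 over the TBX genes, beside 0.04 over all tested genes. JQ1 and DMSO libraries did not overlap for 29 of 58 members, against 20.5% of all tested genes. Without JQ1 replicate 1, the library with the high mitochondrial share, 25 members fell and 3 rose, where 18.2% of all tested genes changed. The FOX count was again 16, without FOXO1 and with FOXP1, which had a log2 fold change of -0.77 in that fit and of -0.18 ± 0.28 with all libraries.

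**Figure D2:**
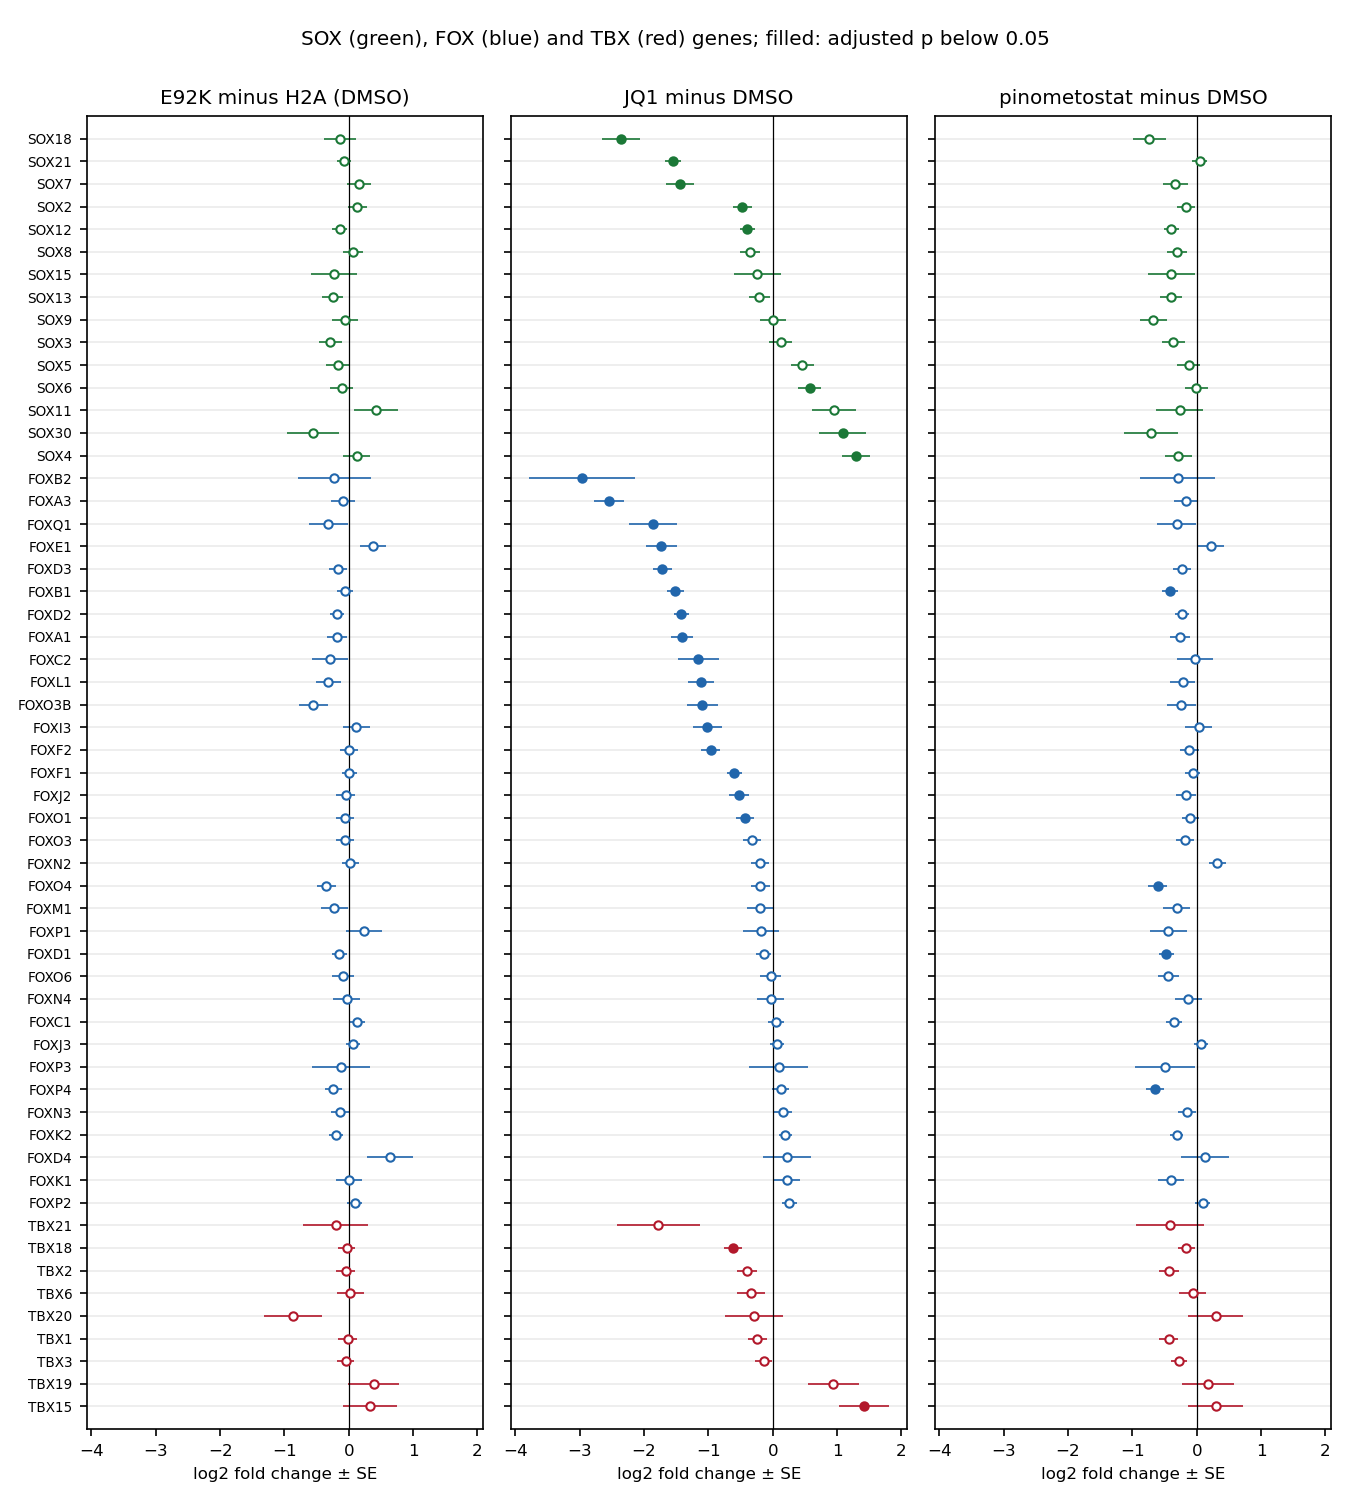
Log2 fold change ± SE (edgeR, n = 4 per group) of the tested members named on the vertical axis against H2A cells with DMSO, for E92K, JQ1 and pinometostat; filled points have an adjusted p below 0.05. No point is filled for E92K, 26 are filled for JQ1 and 4, all FOX genes left of 0, for pinometostat.

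The promoters of FOXA3, FOXD3 and SOX21, which fell, and of SOX4, which rose, are shown so that their base composition can be compared; they were chosen after the values were seen. Each runs 5′ to 3′ on the gene's strand from 250 bases before to 50 after the RefSeq start (GRCh38.p14), which need not be the start in the count files. Capitals mark matches to the 4 motifs searched on both strands, TATAAA for the TATA box, GTAAACA for forkhead proteins, AACAAT for SOX proteins and AGGTGTGA for T-box proteins.
FOXA3: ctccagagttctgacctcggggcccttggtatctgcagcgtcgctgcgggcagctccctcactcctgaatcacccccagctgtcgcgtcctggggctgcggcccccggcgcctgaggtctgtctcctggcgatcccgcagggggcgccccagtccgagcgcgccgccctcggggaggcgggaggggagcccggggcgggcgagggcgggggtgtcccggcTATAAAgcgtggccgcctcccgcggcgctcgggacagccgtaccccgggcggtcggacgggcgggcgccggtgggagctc
FOXD3: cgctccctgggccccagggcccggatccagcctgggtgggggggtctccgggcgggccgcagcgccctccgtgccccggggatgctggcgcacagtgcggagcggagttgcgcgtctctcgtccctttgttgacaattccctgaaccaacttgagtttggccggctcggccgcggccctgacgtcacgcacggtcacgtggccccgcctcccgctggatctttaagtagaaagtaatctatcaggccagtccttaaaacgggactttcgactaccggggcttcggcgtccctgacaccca
SOX21: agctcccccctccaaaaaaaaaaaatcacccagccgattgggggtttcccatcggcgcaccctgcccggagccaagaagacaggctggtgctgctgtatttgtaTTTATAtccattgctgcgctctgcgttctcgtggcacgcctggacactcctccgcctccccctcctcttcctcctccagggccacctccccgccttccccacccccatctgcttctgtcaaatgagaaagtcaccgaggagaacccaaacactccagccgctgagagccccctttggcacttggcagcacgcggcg
SOX4: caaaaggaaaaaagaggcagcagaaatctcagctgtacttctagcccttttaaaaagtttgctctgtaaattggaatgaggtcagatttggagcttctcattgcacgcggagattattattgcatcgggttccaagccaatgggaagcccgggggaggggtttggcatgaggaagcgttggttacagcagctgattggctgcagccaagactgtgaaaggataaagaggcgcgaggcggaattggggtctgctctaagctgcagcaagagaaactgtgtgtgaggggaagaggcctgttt
The windows are chr19:45864076-45864375 (plus strand) for FOXA3, chr1:63322317-63322616 (plus) for FOXD3, chr13:94712496-94712795 (minus) for SOX21 and chr6:21593501-21593800 (plus) for SOX4. FOXA3 holds 37 CpG and a TATAAA from base 221, 30 bases before the start. FOXD3 holds 29 CpG and SOX21 15, with a reverse TATAAA from base 105, while SOX4 holds 8 CpG. Over 35116 RefSeq promoters of this length, 11.5% hold the TATA letters, 3.42% the forkhead, 10.1% the SOX and 0.98% the T-box letters on either strand. Among the 72 promoters of the 54 members found in that table the shares were 9.72%, 5.56%, 9.72% and 1.39%. The median number of CpG was 32 in the 17 promoters of members that fell with JQ1, 24 in the 34 of tested members that did not pass the test, and 14 in all promoters. These are descriptions of the letters in the window.

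Among the FOX genes of the endoderm, FOXA3, a pioneer factor of liver and gut (ENSG00000170608, chromosome 19, 45863989 to 45873797), had 0.80, 0.64, 0.47 and 0.33 CPM in the JQ1 libraries, against 2.85, 3.27, 3.09 and 3.53 CPM in the DMSO libraries. Every JQ1 library lay below every DMSO library. Its log2 fold change was -2.55 ± 0.23 (edgeR adjusted p = 8.05e-07). Its relative FOXA1, which opens chromatin for steroid receptors in breast and prostate, fell by 1.42 (SE 0.17). FOXE1, a factor of thyroid development (ENSG00000178919, chromosome 9, 97853254 to 97856715), had 0.94, 0.64, 0.93 and 0.61 CPM with JQ1, against 2.82, 3.03, 1.63 and 2.74 CPM with DMSO. The groups did not overlap, although DMSO replicate 3 lay nearest to the JQ1 libraries, and FOXE1 fell by 1.73 (SE 0.24, edgeR adjusted p = 5.65e-05). FOXQ1, a factor of epithelial differentiation, fell by 1.86 (SE 0.37). Outside the endoderm, FOXI3, a factor of craniofacial placodes, fell by 1.02 (SE 0.23).

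Of the FOX genes of the nervous system and neural crest, FOXD3, a factor of pluripotent cells and early neural crest (ENSG00000187140, chromosome 1, 63323041 to 63325126), had 2.61, 4.54, 3.93 and 4.94 CPM with JQ1, against 12.4, 12.7, 14.1 and 14.1 CPM with DMSO. It fell by 1.71 (SE 0.15, edgeR adjusted p = 5.22e-07). The exons of FOXD3 share 8.58% of their bases with the opposite-strand gene FOXD3-AS1, which averaged 183 counts beside 244 for FOXD3, and the strand setting of the counting is not given in the sources used here. FOXB1, a factor of the embryonic diencephalon (ENSG00000171956, chromosome 15, 60004222 to 60061730), had 3.34, 2.98, 2.80 and 3.31 CPM with JQ1, against 9.31, 9.94, 8.70 and 7.55 CPM with DMSO. The JQ1 libraries lay close together and well below the others, and FOXB1 fell by 1.52 (SE 0.13, edgeR adjusted p = 5.23e-07). FOXD2 fell by 1.42 (SE 0.12), and FOXB2 by 2.97 (SE 0.82) at 0 to 0.21 CPM with JQ1 and 0.27 to 0.81 CPM with DMSO. The FOXB2 call was lost without DMSO replicate 3 (-2.74) or JQ1 replicate 2 (-2.55). By contrast, FOXD1, the marker of the renal stroma, had a log2 fold change of -0.14 ± 0.11 (edgeR adjusted p = 0.434). Of 3 tested neural crest and glial markers 1 fell with JQ1, and their summed level was 6.12 to 12.6 TPM with JQ1 and 16.03 to 18.8 TPM with DMSO. Their part in the result was not tested.

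The FOX genes of mesoderm and mesenchyme named next lie in 2 clusters. On chromosome 6, FOXQ1, FOXF2 and FOXC1 follow each other with gaps of 75.1 and 214 kb. FOXF2 (ENSG00000137273, 1389834 to 1395597) had 23.0, 21.6, 22.6 and 15.9 CPM with JQ1, against 38.5, 38.2, 37.7 and 47.8 CPM with DMSO, and fell by 0.97 (SE 0.15, edgeR adjusted p = 0.000188). The neighbouring FOXC1 (ENSG00000054598, 1609972 to 1613897) had 150, 120, 141 and 123 CPM with JQ1, against 134, 124, 121 and 133 CPM with DMSO. These groups overlapped, and the log2 fold change of FOXC1 was 0.06 ± 0.12 (edgeR adjusted p = 0.80). On chromosome 16, FOXF1, a factor of lung and gut mesenchyme, FOXC2, a factor of lymphatic vessels, and FOXL1, a factor of gut mesenchyme, lie 51.8 and 6.64 kb apart. They fell by 0.60 (SE 0.12), 1.16 (SE 0.32) and 1.11 (SE 0.21), the FOXC2 call being lost without JQ1 replicate 2 (-0.92). By count, 3 of 3 members of the chromosome 16 cluster fell, and 2 of 3 of that on chromosome 6, beside 10.4% of all tested genes. All belong to group I, a FOX division given below, of which 13 of 17 tested genes fell. An effect of the clusters was not tested. Of the 5 mesenchymal markers 0 changed with JQ1.

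The FOX genes described next belong to the FOXJ, FOXK, FOXM and FOXO subgroups, and FOXO1, FOXJ2 and FOXO3B among them fell. FOXM1, which drives genes of mitosis (ENSG00000111206, chromosome 12, 2857681 to 2877155), had 32.6, 76.0, 75.9 and 82.5 CPM with JQ1, against 88.7, 74.2, 75.2 and 68.2 CPM with DMSO. JQ1 replicate 1 lay apart at less than any other JQ1 library, and the log2 fold change was -0.19 ± 0.21 with it and 0.00 without it. The exons of FOXM1 share 15.9% of their bases with the opposite-strand gene ITFG2, which averaged 369 counts beside 1583 for FOXM1, so some reads may belong to either gene. FOXK1 and FOXK2, repressors linked to autophagy and glycolysis, had 0.22 ± 0.20 and 0.19 ± 0.10. FOXO1 and FOXO3, which AKT holds in the cytoplasm when insulin or growth factors act, had -0.44 ± 0.14 (edgeR adjusted p = 0.0363) and -0.32 ± 0.14 (edgeR adjusted p = 0.127). FOXO1 thus fell, but its call was lost in 9 of 17 other settings. Among them were the fits without any 1 DMSO library (-0.46 to -0.40), JQ1 replicate 1 (-0.33) or JQ1 replicate 2 (-0.47). FOXJ2, a broadly made factor, fell by 0.53 (SE 0.15), a call lost without DMSO replicate 1, 2 or 4 (-0.52 to -0.44). FOXO3B, the copy of FOXO3 listed as a processed pseudogene, fell by 1.09 (SE 0.24). Splitting the FOX genes by the vertebrate division into group I (FOXA to FOXG, FOXI, FOXL, FOXQ and FOXS) and group II (FOXH, FOXJ, FOXK and FOXM to FOXP, with FOXR), a split made after the values were seen, 13 of 17 tested genes of group I fell, with a median of -1.16. In group II 3 of 17 fell, with a median of -0.03, where 10.4% of all tested genes fell with a median of 0.04 over all of them. Kidney developmental markers moved with these genes: of 8 tested, 7 fell and 1 rose with JQ1, although their summed level was 400 to 489 TPM with JQ1 and 400 to 483 TPM with DMSO, and their part in the result was not tested. In bulk RNA, fewer cells of a type and less RNA per cell cannot be told apart.

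**Figure D3:**
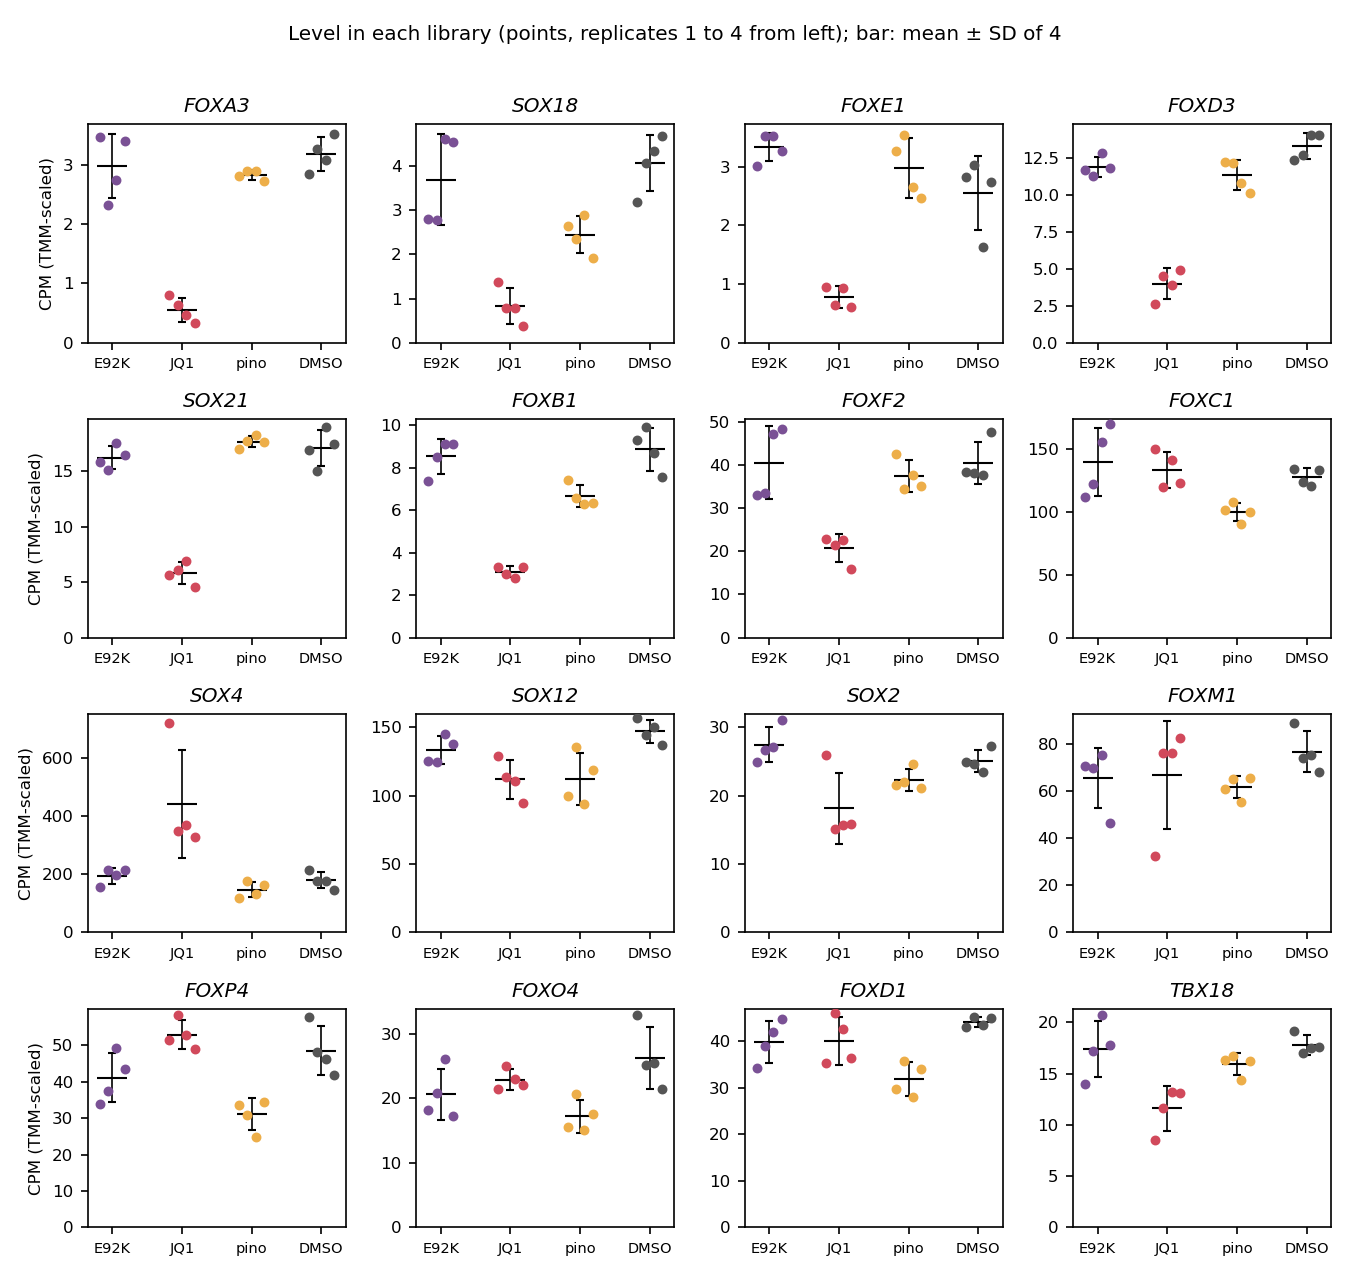
CPM (TMM-scaled) in each library of 16 members, with replicates 1 to 4 from left to right in each group and bars for the mean ± SD of 4. The JQ1 libraries lie apart from the DMSO libraries for FOXA3, SOX18, FOXE1, FOXD3, SOX21, FOXB1 and FOXF2, and JQ1 replicate 1 stands apart for SOX4, SOX2 and FOXM1.

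The SOX genes are ordered by subgroup. In the SOXF pair of vessel and lymphatic development, SOX18 (ENSG00000203883, chromosome 20, 64047582 to 64049641) had 1.38, 0.78, 0.78 and 0.37 CPM with JQ1, against 3.19, 4.08, 4.35 and 4.69 CPM with DMSO. It fell by 2.35 (SE 0.30, edgeR adjusted p = 2.36e-05), and SOX7 fell by 1.44 (SE 0.21). For both the JQ1 libraries lay below all DMSO libraries, and SOX17, the third member of the subgroup, had no counts. The exons of SOX7 share 39.4% of their bases with the same-strand gene AC105001.2, which averaged 2.125 counts beside 81.75 for SOX7. The level of SOX7 may therefore depend on how shared reads were assigned. The endothelial markers, given above, were near 0, and of the 1 that was tested none changed.

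In the SOXB genes of neural progenitors, SOX21 (ENSG00000125285, chromosome 13, 94709622 to 94712399) had 5.66, 6.10, 6.94 and 4.57 CPM with JQ1, against 16.9, 14.99, 18.9 and 17.5 CPM with DMSO. The groups lay far apart, and SOX21 fell by 1.55 (SE 0.12, edgeR adjusted p = 2.22e-07), while SOX21-AS1, the RNA named for its antisense position, fell by 0.82 (SE 0.14). SOX2 (ENSG00000181449, chromosome 3, 181711924 to 181714436) had 26.0, 15.1, 15.7 and 15.9 CPM with JQ1, against 25.0, 24.6, 23.5 and 27.3 CPM with DMSO. JQ1 replicate 1 lay within the DMSO range while the other 3 lay below it. SOX2 fell by 0.47 (SE 0.15, edgeR adjusted p = 0.0313) with that library and by 0.72 without it. The call was lost without DMSO replicate 1, 2 or 4 or JQ1 replicate 2, 3 or 4 (-0.47 to -0.40). On the TPM scale JQ1 replicate 1 did not stand apart for SOX2, at 17.3 TPM beside 17.9 to 19.9 TPM in the other JQ1 libraries and 29.2 to 34.0 TPM with DMSO. SOX3 had a log2 fold change of 0.12 ± 0.18.

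The SOXC genes, which share targets in neuronal progenitors, went in opposite directions. SOX4 (ENSG00000124766, chromosome 6, 21592768 to 21598619) had 722, 350, 370 and 328 CPM with JQ1, against 216, 178, 179 and 147 CPM with DMSO. All JQ1 libraries lay above all DMSO libraries, and SOX4 rose by 1.299 ± 0.22 (edgeR adjusted p = 0.000375) with JQ1 replicate 1 and by 0.93 without it. In TPM, which gives that library no such distance, SOX4 averaged 189 ± 14.2 with JQ1 and 100.2 ± 20.3 with DMSO. SOX12 (ENSG00000177732, chromosome 20, 325595 to 330224) had 129, 114, 111 and 94.6 CPM with JQ1, against 157, 144, 151 and 137 CPM with DMSO, and fell by 0.39 (SE 0.12, edgeR adjusted p = 0.0315). That call was lost without DMSO replicate 1, 2 or 3 or JQ1 replicate 2, 3 or 4 (-0.40 to -0.31). SOX11, the third, had 0.65 to 1.26 CPM with JQ1 and 0.34 to 0.65 CPM with DMSO, a log2 fold change of 0.95 ± 0.34 that missed the threshold (edgeR adjusted p = 0.0642) but passed it, at 1.05, without JQ1 replicate 1. With JQ1 SOX12 averaged 64.4 ± 12.5 TPM, well under SOX4.

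Among the SOXD genes of cartilage and glia, SOX6 (ENSG00000110693, chromosome 11, 15966449 to 16739591) had 9.79, 6.69, 6.83 and 6.996 CPM with JQ1, against 5.59, 5.73, 4.68 and 4.24 CPM with DMSO. It rose by 0.57 ± 0.18 (edgeR adjusted p = 0.0371), but by 0.40, past the threshold no longer, without JQ1 replicate 1, and likewise without DMSO replicate 3 (0.54) or 4 (0.50). In all, the call was lost in 10 of 17 other settings. On the TPM scale JQ1 replicate 1 was the lowest JQ1 library for SOX6, at 0.837 TPM beside 1.01 to 1.13 TPM in the others, and lay within the DMSO range of 0.663 to 0.979 TPM. SOX6 shares 1.1% of its exon bases with the opposite-strand gene C11orf58, which averaged 6520 counts beside 125 for SOX6. SOX5 had 0.46 ± 0.18 (edgeR adjusted p = 0.0892), or 0.60, past the threshold, without DMSO replicate 1, and SOX13 -0.21 ± 0.17. The SOXE genes SOX8 and SOX9, which act in testis and cartilage, had -0.35 ± 0.16 and 0.00 ± 0.20, with SOX8 at -0.52, past the threshold, without JQ1 replicate 1. SOX30, a testis factor, rose by 1.09 ± 0.36 (edgeR adjusted p = 0.047). Its groups overlapped, at 2 to 15 counts per library. The call was lost in 13 of 16 other settings, among them the fits without DMSO replicate 1, 2 or 4 or JQ1 replicate 1, 2 or 3 (0.89 to 1.12). Of 7 neuronal markers 5 were tested, and 2 of them rose with JQ1. Their summed level was 265 to 294 TPM with JQ1 and 174 to 285 TPM with DMSO, and their part in the SOX changes was not tested.

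Over the TBX genes, TBX18 (ENSG00000112837, chromosome 6, 84687351 to 84764519) had 8.48, 11.6, 13.2 and 13.1 CPM with JQ1, against 19.1, 17.0, 17.5 and 17.6 CPM with DMSO. It fell by 0.61 (SE 0.14, edgeR adjusted p = 0.00478). TBX15, a factor of limb and skin, had 0.36, 1.07, 0.62 and 0.70 CPM with JQ1, against 0.30, 0.27, 0.28 and 0.19 CPM with DMSO. The groups did not overlap, and TBX15 rose by 1.42 ± 0.39 (edgeR adjusted p = 0.0178) at a level under 1 TPM. This call was lost without DMSO replicate 4 (1.29) or JQ1 replicate 2 (1.12). TBX1 (ENSG00000184058, chromosome 22, 19756703 to 19783593) had 70.1, 53.6, 50.9 and 42.2 CPM with JQ1, against 60.5, 62.0, 67.9 and 65.6 CPM with DMSO. JQ1 replicate 1 was the highest of these libraries, and the log2 fold change of -0.24 ± 0.15 became -0.42, past the threshold, without it. The exons of TBX1 share 8.01% of their bases with the opposite-strand gene GNB1L, which averaged 639 counts beside 1319 for TBX1. TBX2 (ENSG00000121068, chromosome 17, 61399896 to 61409466) had 15.2, 11.96, 10.4 and 10.4 CPM with JQ1, against 16.6, 16.2, 16.6 and 13.8 CPM with DMSO, a log2 fold change of -0.40 ± 0.15 (edgeR adjusted p = 0.0785), or -0.56, past the threshold, without JQ1 replicate 1. TBX3 (ENSG00000135111, chromosome 12, 114670254 to 114684164) had 38.1, 40.3, 47.8 and 37.9 CPM with JQ1, against 52.8, 44.4, 42.1 and 41.8 CPM with DMSO, and these groups overlapped.

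The calls with JQ1 were also set beside gene structure, which the rule had not used, by count and with no test. For this, the exons deposited with the counts were merged for each gene. Of members with 1 exon block 10 of 15 fell, beside 11.3% of all tested genes with 1 block. With 2 to 4 blocks 8 of 14 members fell, beside 16.5% of all genes, and with 5 or more blocks 4 of 29 members fell, beside 8.93% of all genes. These 4 were FOXB1 with 6 blocks, FOXO1 with 7, FOXJ2 with 12 and TBX18 with 14. Members with 1 block had a median log2 fold change of -1.09, against 0.06 over all genes with 1 block. Group I and group II FOX genes had a median of 2 and 10 blocks, so structure and FOX group go together. Across the 58 members the JQ1 log2 fold change had a Spearman correlation of 0.49 with the gene's span and 0.21 with its mean CPM. With pinometostat these were 0.13 and -0.14, and 0 of 15 members with 1 block fell, beside 1.59% of all such genes. The correlations are a description across genes that share the same libraries. None is given over all genes, so whether they are particular to the members was not tested. SOX4, with 1 block, rose, and FOXC1, FOXD4, SOX3 and SOX11, also with 1 block, did not pass the test.

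**Figure D4:**
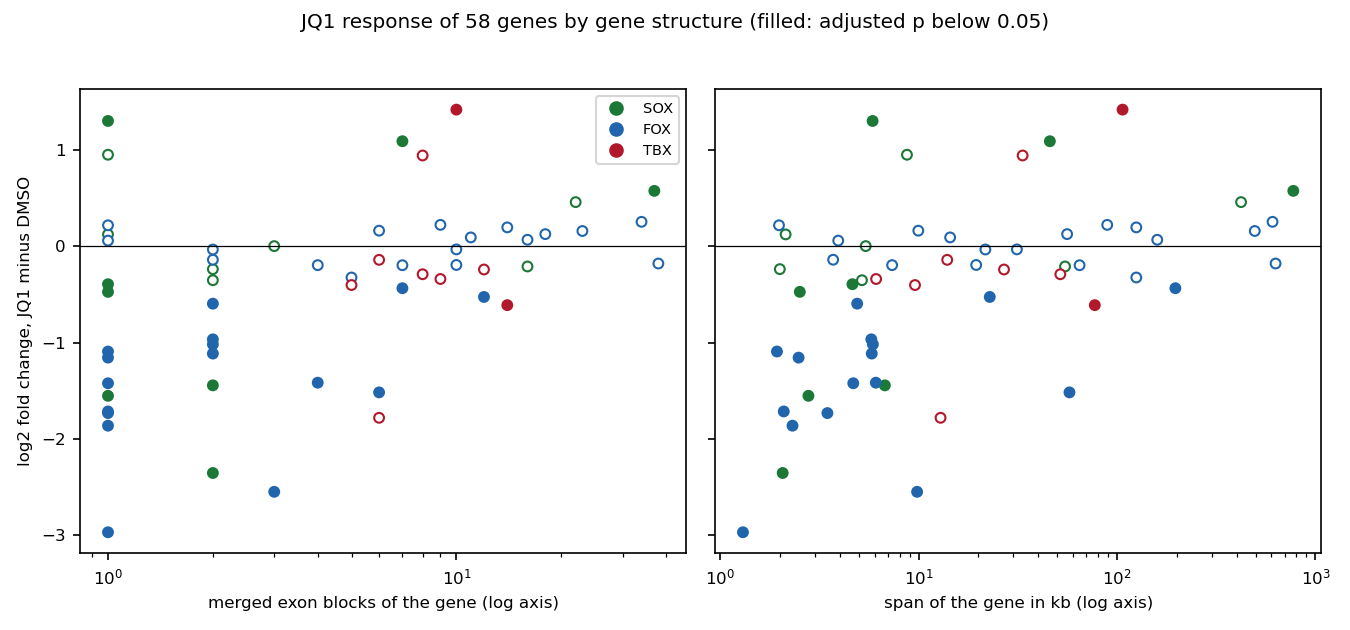
Log2 fold change with JQ1 against the number of merged exon blocks (left) and the gene's span in kb (right), both on log axes, for the 58 tested members; filled points have an adjusted p below 0.05. Most filled points below -1 have 1 to 4 exon blocks, and SOX4 is the filled point above 1 among the genes with 1 block.

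The genes that work with these families, taken from lists chosen with earlier results of these data known, are given by count, beside 7.16% of all tested genes higher and 10.4% lower with JQ1. Over these lists 12 genes were higher, against 4 with scaling by library size alone and 2 with limma on log2(TPM + 1). Of 24 genes listed as regulators of FOXO proteins 6 rose with JQ1 and 0 fell, with a median of 0.08. The list held the gene MST1 beside STK4, which is a different gene, so not every listed gene need regulate FOXO proteins. The kinase SGK1, which phosphorylates FOXO3, rose by 1.35 ± 0.18, the deacetylase SIRT1 by 0.75 ± 0.12, the AKT kinase PDPK1 by 0.92 ± 0.16 and the FOXO-binding 14-3-3 protein YWHAG by 0.52 ± 0.11. Of 19 tested FOXO targets 4 rose, among them IRS2 by 0.98 ± 0.19 and SESN3 by 0.54 ± 0.16, and 2 fell, PIK3IP1 by 1.04 (SE 0.16) and CDKN1B by 0.56 (SE 0.11). Of 23 FOXM1 and MuvB partners and targets 2 fell, LIN9, a MuvB subunit, by 0.61 (SE 0.12) and the mitotic kinase AURKA by 0.65 (SE 0.15), and 0 rose. Among 11 tested HMG-box, forkhead and T-box genes outside the symbol rule, the T-box gene EOMES fell by 1.51 (SE 0.23), the Wnt effectors LEF1 and TCF7L2 by 0.62 (SE 0.10) and 0.69 (SE 0.13), and CIC rose by 0.62 ± 0.21. Of 17 tested partners and corepressors POU3F1 rose by 0.67 ± 0.17 and TLE3 fell by 0.48 (SE 0.15). Of 8 tested RNAs named as antisense to members, SOX21-AS1 and FOXD2-AS1 fell, the last by 0.52 (SE 0.15).

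Pinometostat was set against DMSO to ask which of the factors differed after 24 h of DOT1L inhibition. In all, 4 FOX genes fell and no SOX or TBX gene passed the test: FOXP4, FOXO4, FOXD1 and FOXB1, by 0.41 to 0.65 on the log2 scale. These 4 of 58 members (6.90%) stand beside 8.2% of all tested genes changed, with 4.58% lower and 3.62% higher, so the share of members called was near the background. Still, 48 of 58 members had a log2 fold change below 0, against 8123 of 17306 genes, and the median was -0.25 over the members and 0.03 over all tested genes. Pinometostat and DMSO libraries did not overlap for 19 of 58 members, against 26.3% of all tested genes. Fitted on the 8 libraries of both groups alone, 16 members fell and 1 rose of 55 tested, where 27.6% of all tested genes changed. Without JQ1 replicate 1 and E92K replicate 4, which belong to neither group, 15 fell and 1 rose of 58, with a background of 27.4%. Besides the shared spread, leaving them out changed the genes tested, which were 17446 in place of 17306. Without DMSO replicate 1, however, 0 members and 1.61% of all tested genes changed. Without pinometostat replicate 1 or replicate 3, 1 member changed, with 2.54% and 3.91% of all tested genes.

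FOXP4, a repressor of lung and neural development (ENSG00000137166, chromosome 6, 41546426 to 41602384), had 33.7, 31.0, 24.8 and 34.5 CPM with pinometostat, against 57.7, 48.2, 46.2 and 41.9 CPM with DMSO. The groups did not overlap, and FOXP4 fell by 0.65 (SE 0.13, edgeR adjusted p = 0.0113). FOXO4 (ENSG00000184481, chromosome X, 71096197 to 71103535) had 15.6, 20.6, 15.003 and 17.6 CPM with pinometostat, against 32.9, 25.1, 25.5 and 21.4 CPM with DMSO. The highest pinometostat library lay just under the lowest DMSO library, and FOXO4 fell by 0.61 (SE 0.15, edgeR adjusted p = 0.0220). FOXD1 (ENSG00000251493, chromosome 5, 73444827 to 73448527) had 29.9, 35.7, 28.0 and 34.0 CPM with pinometostat, against 43.1, 45.1, 43.6 and 44.9 CPM with DMSO. The DMSO libraries lay close together, and FOXD1 fell by 0.47 (SE 0.11, edgeR adjusted p = 0.0205). FOXB1 had 7.43, 6.58, 6.30 and 6.35 CPM with pinometostat, against 9.31, 9.94, 8.70 and 7.55 CPM with DMSO, and fell by 0.41 (SE 0.12, edgeR adjusted p = 0.0484). Without DMSO replicate 1 all 4 calls were lost, with FOXP4 at -0.57, FOXO4 and FOXD1 at -0.50 and FOXB1 at -0.41. Without pinometostat replicate 1 or 3, FOXO4 (-0.56 and -0.55), FOXD1 (-0.44 and -0.41) and FOXB1 (-0.47 and -0.39) were lost, and FOXB1 was also lost without DMSO replicate 2 or 3 or pinometostat replicate 2 or 4 (-0.42 to -0.37).

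Several members lay just outside the threshold with pinometostat. SOX9 had 4.79, 7.22, 5.50 and 7.51 CPM with pinometostat, against 12.3, 9.06, 9.68 and 8.90 CPM with DMSO, a log2 fold change of -0.67 ± 0.21 (edgeR adjusted p = 0.0515). SOX12 had 100.1, 135, 93.9 and 119 CPM with pinometostat, against 157, 144, 151 and 137 CPM with DMSO, a log2 fold change of -0.39 ± 0.12 (edgeR adjusted p = 0.0535). For both genes all pinometostat libraries lay below all DMSO libraries. SOX12 passed the threshold, at -0.50, without pinometostat replicate 2. In 17 other settings SOX9 passed in 8 and SOX12 in 7. FOXB1, which fell in the main fit, passed in 6 of them, and FOXP4, FOXO4 and FOXD1 in 15, 13 and 13. The threshold thus does not set SOX9 and SOX12 clearly apart from FOXB1. SOX18, FOXC1, FOXK2, TBX1 and TBX2 had log2 fold changes of -0.73 ± 0.26, -0.36 ± 0.13, -0.31 ± 0.10, -0.43 ± 0.15 and -0.43 ± 0.15, with edgeR adjusted p between 0.0722 and 0.087, and FOXK2 passed the threshold, at -0.37, without DMSO replicate 4. Over the 17 other settings FOXK2 passed in 6, TBX1 in 5, SOX18 in 4, and FOXC1 and TBX2 in 3 each. SOX4 and SOX2 had log2 fold changes of -0.28 ± 0.21 and -0.17 ± 0.14. Of the 10 members above 0, FOXN2 was the highest, with 0.32 ± 0.13 (edgeR adjusted p = 0.138). Of the partner lists, the T-cell factor TCF7 fell by 0.69 (SE 0.12), TCF7L2 by 0.53 (SE 0.13), AKT1 by 0.49 (SE 0.12), USP7, which removes ubiquitin from FOXO4, by 0.38 (SE 0.11), and MYBL2 by 0.40 (SE 0.10), and 0 rose, beside 4.58% of all tested genes lower and 3.62% higher. None of the tested kidney, neuronal, neural crest or mesenchymal markers changed with pinometostat.

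The comparison of E92K with H2A, both with DMSO, asked whether the acidic patch mutant altered these factors. No member changed, and neither did any other tested gene (0 of 17306, 0%, edgeR). At an unadjusted p below 0.05, 2 members and 1296 genes passed, and DESeq2 called 4 genes and 0 members. The median log2 fold change was -0.06 over the members and 0.00 over all tested genes. The 2 members were FOXO3B, with a log2 fold change of -0.55 ± 0.22, and FOXO4, with -0.35 ± 0.15 (edgeR adjusted p = 0.656 for both). FOXO4 had 18.2, 20.8, 26.1 and 17.3 CPM in E92K cells, against 32.9, 25.1, 25.5 and 21.4 CPM in H2A cells, and the groups overlapped. FOXD2 was the only member whose groups did not overlap, against 5.17% of all tested genes, with a log2 fold change of -0.18 ± 0.11. FOXC1 ranged from 112 to 170 CPM in E92K cells and from 121 to 134 CPM in H2A cells, and FOXF2 from 33.1 to 48.5 CPM in E92K cells and from 37.7 to 47.8 CPM in H2A cells. For both genes the E92K range was the wider. SOX4, SOX2 and SOX12 had 0.12 ± 0.21, 0.13 ± 0.14 and -0.14 ± 0.12, and TBX1, TBX2 and TBX3 had -0.02 ± 0.15, -0.05 ± 0.15 and -0.05 ± 0.13.

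Summed over each family, the levels were compared in TPM, with no test. The SOX sum was 275 ± 35.7 TPM in E92K cells, 307 ± 13.9 with JQ1, 220 ± 30.5 with pinometostat and 300 ± 33.7 with DMSO (SD, n = 4). With JQ1 the SOX sum depended on the scale, since the log2 ratio to DMSO was 0.03 in TPM and 0.57 in CPM, where JQ1 replicate 1 carried 722 CPM of SOX4. The FOX sum was 518 ± 82.9 TPM in E92K cells, 414 ± 108 with JQ1, 438 ± 45.9 with pinometostat and 583 ± 59.2 with DMSO. The TBX sum was 95.7 ± 15.3 TPM in E92K cells, 74.5 ± 14.9 with JQ1, 77.5 ± 8.36 with pinometostat and 107 ± 7.50 with DMSO. For the FOX and the TBX sum all JQ1 and all pinometostat libraries lay below all DMSO libraries in TPM. For the SOX sum all pinometostat libraries did so in TPM, but not in CPM. In CPM the SOX sum was 343 ± 49.0 with pinometostat and 425 ± 38.2 with DMSO, and these groups overlapped. The FOX and TBX sums with JQ1 also depended on the scale, with log2 ratios to DMSO of -0.49 and -0.52 in TPM and of -0.12 and -0.25 in CPM. JQ1 replicate 1 had the lowest of these sums in TPM, 253 for FOX and 53.5 for TBX.

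The effects of JQ1, pinometostat and E92K against DMSO share the same DMSO libraries, so the conditions were also contrasted with each other directly. Between JQ1 and pinometostat, 34 of 58 members differed, 15 higher and 19 lower with JQ1, against 34.2% of all tested genes, and 31 did not overlap, against 33.2% of all genes. FOXP4 had 51.6, 58.3, 52.8 and 49.0 CPM with JQ1 and 24.8 to 34.5 CPM with pinometostat, a log2 difference of 0.77 ± 0.14 (edgeR adjusted p = 0.000305). FOXO4 and FOXD1 were likewise higher with JQ1, by 0.41 ± 0.15 and 0.33 ± 0.11, whereas FOXB1, which fell in both comparisons with DMSO, was lower with JQ1 by a log2 difference of -1.10 ± 0.13. SOX9 and FOXC1 were higher with JQ1 by 0.67 ± 0.21 and 0.42 ± 0.13. SOX4 was higher by 1.58 ± 0.22 and SOX21 differed by -1.60 ± 0.12. Between JQ1 and E92K cells, 6 members were higher and 18 lower with JQ1, against 22.9% of all tested genes changed in either direction. Of the members 25 did not overlap there, against 20.1% of all genes. FOXA3, FOXE1 and FOXD3 differed there by -2.45 ± 0.23, -2.11 ± 0.24 and -1.55 ± 0.15, and FOXK2 by 0.39 ± 0.10. Between E92K cells and pinometostat 0 members differed (0.352% of all tested genes did), with 13 members and 3009 genes at an unadjusted p below 0.05. DESeq2 called 1 member and 4.8% of all tested genes there.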

How the data were processed

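Total RNA of 16 HEK293T samples was sequenced by a service provider, per the labels' protocols. The authors deposited counts per gene as whole numbers and TPM per gene; the TPM equal count over exonic length, scaled per library. Aligner, counter, versions and strand setting were not given in the sources used here. Per the labels, pinometostat was given at 2.5 µM (the treatment text has millimolar). Of 56898 gene identifiers shared with GENCODE 29 (GRCh38), 96.3% had the same start and end.

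Genes passing filterByExpr (minimum count 10, minimum total 15; 17306 genes) were fitted over all 16 libraries, a mean per group, with the quasi-likelihood test of edgeR 4.0.16 (R 4.3.3), TMM scaling and Benjamini-Hochberg adjustment, two-sided. The common dispersion was 0.0307 with 12 residual degrees of freedom. The SE is the fold change over the square root of F. The fit was tested on simulated counts in which 200 genes were changed. Depth, 17779692 to 27599686 counts per library, limits the precision of genes with few counts. No replicate pair matched within sampling noise (smallest chi-square per degree of freedom 3.54). Pairs with JQ1 replicate 1 had 189 to 217, beside 3.69 to 10.1 among the other JQ1 libraries and at most 64.6 in the other groups.

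Members, lists, named genes and settings were chosen with earlier results of these data known. Named were all members past the threshold, per-library values of the 6 largest rises and falls with at least 1 CPM per comparison and the 4 highest per family, 12 preset genes and up to 4 genes per list; other genes given with values were chosen after these were seen. Other settings used DESeq2 1.42.0 and limma 3.58.1 on log2(TPM + 1), among others given in the closing section. Some of the genes are not reported here by name.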

Additional observations from a re-analysis of the deposited data

Results flagged for a closer look

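Over the 20 members with values given by library, 80 sets of 4 replicates were tested for a library far from the other 3 with Dixon's gap test, which chance passes in about 1 of 20 sets. It was passed in 6 sets, 4 of them by JQ1 replicate 1, the library with 16.5% mitochondrial counts, and 2 by DMSO replicate 4.

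In JQ1 replicate 1 SOX4 had 722 CPM beside 328 to 370 in the other JQ1 libraries, SOX2 had 26.0 CPM beside 15.1 to 15.9, and SOX6 had 9.79 CPM beside 6.69 to 6.996, while FOXM1 had 32.6 CPM beside 75.9 to 82.5. In TPM, which is not scaled by TMM, the same library had 207 for SOX4 beside 177 to 194, 17.3 for SOX2 beside 17.9 to 19.9, 0.837 for SOX6 beside 1.01 to 1.13 and 11.2 for FOXM1 beside 46.2 to 53.2. The part of the mitochondrial share in these values was not tested. In DMSO replicate 4 FOXF2 had 47.8 CPM beside 37.7 to 38.5 in the other DMSO libraries, and TBX2 had 13.8 CPM beside 16.2 to 16.6.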

How the results depend on the processing

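Of the members that changed with JQ1, 16 of 22 that fell and 1 of 4 that rose (SOX4) kept their call in all other settings that tested them. The exceptions were FOXB2, FOXC2, FOXJ2, FOXO1, SOX2 and SOX12, and SOX6, SOX30 and TBX15. Calls were lost in 2 of 15 settings for FOXB2, 2 of 16 for FOXC2 and 5 of 17 for FOXJ2. For FOXO1, SOX2 and SOX12 it was 9, 8 and 7 of 17. Among the rises it was 10 of 17 for SOX6, 13 of 16 for SOX30 and 4 of 15 for TBX15. None of the 4 calls with pinometostat was kept in all. No called value changed sign. Log2 fold changes that did not pass the test changed sign in at least 1 setting for 23 members with E92K, 17 with JQ1 and 11 with pinometostat. Scaling by library size alone put the JQ1 median at -0.14 over all genes and -0.43 over members, and limma on log2(TPM + 1) at -0.21 and -0.47, against 0.04 and -0.24 with TMM. The cause of the changes below was not tested. Counts at an adjusted p below 0.01 are given without the share of all tested genes, so they have no background.

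With JQ1, members higher (4 before) were 1 at an adjusted p below 0.01, with the filter of 50 counts in 4 libraries, with no filter, with limma on TPM and with the 8 libraries alone, and 2 with library size alone. SOX genes higher (3 before) were 1 in each of these, and TBX genes higher (1 before) were 0 in each of these but library size alone. SOX genes lower (5 before) were 3 at 0.01 and 3 with the replicate block. TBX genes lower (1 before) were 4 with library size alone and without both high-mitochondrial libraries, and 3 with limma. Partner-list genes higher (12 before) were 4 with library size alone, 2 with limma, 6 with 8 libraries and 7 with the block. Of all tested genes, in either direction, 17.6% changed with library size alone, 13.8% with limma and 11.4% with 8 libraries. It was 13.7% with the block, 19.9% with the filter of 50 counts, 8.27% with no filter and 24.1% without both high-mitochondrial libraries.

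With pinometostat, members lower (4 before) were 11 with DESeq2 (3 SOX, 2 TBX), 7 with DESeq2 size factors (2 SOX) and with the strict filter (2 SOX), 15 without both high-mitochondrial libraries (4 SOX, 9 FOX, 2 TBX), 16 with 8 libraries alone (4 SOX, 9 FOX, 3 TBX) and 0 at 0.01 (0 FOX). Without both high-mitochondrial libraries and with 8 libraries, 1 member, a FOX gene, was higher (0 before). SOX lower were 2 and TBX 1 with library size alone; SOX 2, FOX 0 and TBX 1 with limma; SOX 1 with no filter. List genes lower (5 before) were 10, 8, 3, 2, 2, 22 and 23 with DESeq2, its size factors, no filter, limma, the block, both libraries omitted and 8 libraries, with 5 and 4 higher (0 before) in the last 2. Of all tested genes, in either direction, 13.6% changed with DESeq2, 8.97% with its size factors and 12.3% with the strict filter. It was 27.4% with both libraries omitted and 27.6% with 8 libraries. With library size alone it was 7.01%, with limma 2.64%, with no filter 2.85% and with the block 3.09%.

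Between JQ1 and pinometostat, members higher (15 before) were 4 at 0.01, 5 with library size alone, 2 with limma and 9 with no filter. Between JQ1 and E92K (6 before) they were 2, 3, 2 and 3. With library size alone, limma and no filter, 32.1%, 21.3% and 15% of all tested genes changed between JQ1 and pinometostat. Between JQ1 and E92K it was 20.6%, 12.6% and 9.4%. Between E92K and pinometostat (0 before) 1 was higher with DESeq2, no filter and 8 libraries each, and 2 higher and 1 lower without both high-mitochondrial libraries. In the same order, 4.8%, 0.825%, 2.3% and 8.98% of all tested genes changed there. The summed SOX log2 ratio with JQ1 was 0.57 in CPM and 0.03 in TPM, with -0.12 and -0.49 for FOX and -0.25 and -0.52 for TBX genes.

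Leaving out 1 library at a time gave, with JQ1, 1 to 4 higher members, 1 to 3 higher and 3 to 6 lower SOX, 0 to 1 higher and 1 to 3 lower TBX genes and 6 to 11 higher list genes. With pinometostat it gave 0 to 5 lower members, all but 0 to 1 SOX being FOX (0 to 5), and 0 to 3 higher and 1 to 5 lower list genes. Between JQ1 and pinometostat it gave 6 to 16 higher members. In these fits 12.6% to 18.2% of all tested genes changed with JQ1 and 1.61% to 8.79% with pinometostat. Between JQ1 and pinometostat 27.8% to 39.1% did. Same-numbered libraries correlated from -0.557 to 0.238, over 0.1 in 2 of 24 pairs, so the numbers were not taken as pairs. With the replicate block 21 members changed with JQ1 and 3 with pinometostat, where 13.7% and 3.09% of all tested genes changed.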
